A study of Mus musculus with 6 samples.

Results

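The enzymes that turn glucose into lactate or acetyl-CoA, with the kinases, phosphatases and transcription factor that set their activity, were followed in pancreatic CD8 T cells as a list of 34 genes. A member was measured by a probe that the platform annotation ties to that gene symbol alone, and of several such probes the brightest on average was used. This found 30 of the 34 members among 19929 genes. Gpi1, Pfkfb1 and Eno1 had 0 such probes. Gapdh was listed only on 25 probes that carry other symbols as well, so it is not described here. Pfkfb4, Eno2 and Pdk4 were among the 30% of genes with the lowest mean and were not tested, which left 27 tested members of 13950 tested genes.

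The cells bear AI4, a transgenic antigen receptor that recognises beta cells, and were purified from pancreas with an antibody to CD8 and an MimA2/H-2Db tetramer. They came from Rip-B7xAI4 mice, labelled as resistant to type 1 diabetes (T1D), or from AI4 mice, labelled as having developed it, all on a C57BL/6.H2g7/g7 background. Rip-B7x is a transgene in which the rat insulin promoter drives B7x, an inhibitory ligand of the B7 family, in beta cells. The AI4 receptor is thus shared by both groups, the transgene and the disease status differ together between them and cannot be told apart, and the labels give no age. There were 3 biological replicates of Rip-B7xAI4 and 3 of AI4, each 1 array hybridised with total RNA from pooled pancreata, and how many mice made up a pool is not stated in the labels. P-values measure the spread between these 6 arrays.

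Glycolysis splits glucose into pyruvate in the cytosol. Lactate dehydrogenase then reduces pyruvate to lactate, or the pyruvate dehydrogenase complex feeds it into mitochondria, and the pyruvate dehydrogenase kinases (Pdk) switch that complex off. Resting T cells draw mainly on mitochondrial respiration, whereas activated effector T cells take up much glucose and release lactate even when oxygen is present, a state in which the factors Hif1a and Myc are known to raise glycolytic genes.

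Array medians lay between 5.94 and 6.10 log2 with 3 arrays a group, which sets the precision throughout. The spread of the arrays was less even, with interquartile ranges of 2.13, 1.93 and 1.81 in Rip-B7xAI4 and 1.71, 1.76 and 1.95 in AI4. At a like median, a wider range places bright genes higher and dim genes lower. The part of this in the differences below was not tested. T cell genes were bright on all arrays, with a mean over 7 markers of 10.13 to 10.86 in Rip-B7xAI4 and 10.03 to 10.77 in AI4. These markers differed in direction. Cd8b1, a chain of the CD8 receptor, read 9.53, 10.73 and 10.05 log2 in Rip-B7xAI4, against 10.48, 11.34 and 11.49 in AI4 (unadjusted p = 0.0387 by limma). The other CD8 chain gene, Cd8a, differed by -0.69 ± 0.35 (SE) with overlap, and Cd3e, a chain of the T cell receptor complex, by 0.88 ± 0.42 without overlap, and neither passed. The 12 myeloid markers were uneven, with a mean of 9.05 and 8.61 in Rip-B7xAI4 replicates 1 and 3 and of 6.25 in replicate 2, against 5.99 to 6.72 in AI4. All 12 myeloid markers had a higher mean in Rip-B7xAI4. On replicate 2 they went different ways. Cd68 read 7.35 log2 there, against 6.21 to 6.49 in AI4, and Fcer1g 6.67, against 5.58 to 6.21 in AI4. Csf1r, Adgre1, Cd14 and Fcgr3 read 5.49, 5.06, 5.27 and 5.64 there, each below every AI4 array. The remaining myeloid markers lay within the AI4 range, so whether replicate 2 was free of myeloid RNA is not settled. The B cell markers were higher on the same 2 arrays, at 6.94 and 6.95 against 5.80 in replicate 2 and 5.74 to 6.39 in AI4. The 6 beta cell genes measured averaged 5.11 to 5.44 in Rip-B7xAI4 and 5.30 to 5.54 in AI4, below the array medians, although Ins2 (insulin) exceeded the median on 5 of 6 arrays. Acinar markers averaged 5.76 to 5.96 in Rip-B7xAI4 and 5.93 to 5.95 in AI4, and muscle and fibroblast markers 6.19 to 6.38 in Rip-B7xAI4 and 6.31 to 6.78 in AI4. Endothelial markers averaged 5.19 to 5.61 in Rip-B7xAI4 and 5.58 to 5.85 in AI4, and NK cell markers 5.79 to 6.07 in Rip-B7xAI4 and 5.17 to 5.27 in AI4. Of the 4 NK genes only Eomes was bright enough to test, at 7.03 to 8.88 log2 in Rip-B7xAI4 and 6.56 to 7.44 in AI4, with overlap. Ncr1, Klra8 and Klrb1c were too dim to test, and of these only Klrb1c had no overlap. Of the genes of cell division, 9 were measured and averaged 7.52 to 9.06 in Rip-B7xAI4 and 5.75 to 7.17 in AI4. Differences between the groups in bulk RNA such as this cannot separate a change in the number of cells of a type from a change in RNA per cell.

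No glycolytic member passed the test across all genes, and those with the clearest separation went both ways. Pdk3, Pfkp, Ldha and Pgam1 were higher in Rip-B7xAI4, while Pfkfb2 and Pdk1 were lower. With limma, 0 of 27 tested members had an adjusted p under 0.05, against 0.00717% of all tested genes, which is 1 gene, and the smallest adjusted p of a member was 0.206. At an unadjusted p under 0.05 there were 6 members (22.2%), against 8.73% of all tested genes. Of these, 4 were higher in Rip-B7xAI4 (14.8% of members, against 5.56% of all genes) and 2 lower (7.41%, against 3.17%). Every Rip-B7xAI4 array exceeded every AI4 array for 4 members (14.8%, against 5.99% of all genes) and fell short of every one for 5 (18.5%, against 11.9%). The split of calls over all genes moved with the scaling, to 4.46% higher and 3.78% lower after quantile normalization and 6.06% and 2.02% after median centring. It also moved with brightness, to 6.59% higher and 2.46% lower when only the brighter 50% of genes were tested. Over the 27 members 15 means were higher and 12 lower in Rip-B7xAI4, against 5437 higher and 8513 lower over all 13950 tested genes. The median log2 difference was 0.062, against -0.097 over all tested genes; after quantile normalization 13 were higher and 14 lower, with a median of -0.042, and after median centring 18 and 9, with a median of 0.13. The median 95% interval of a member's difference reached 0.60 to either side, so a change smaller than that was generally not resolved.

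**Figure D1:**
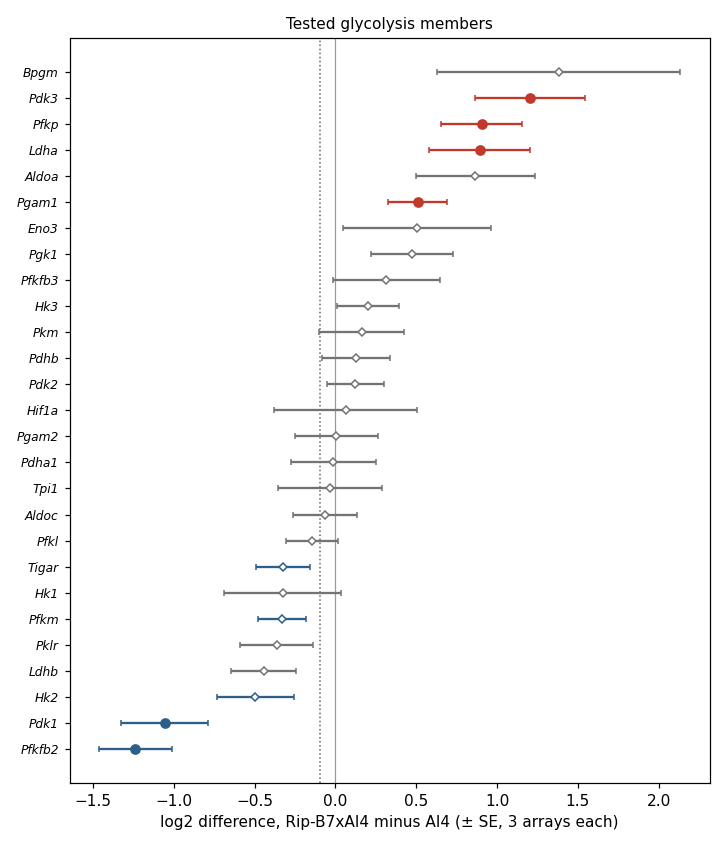
Log2 difference (Rip-B7xAI4 minus AI4, ± SE, 3 arrays each) of the 27 tested members, in order of size. Filled circles mark the 6 members with an unadjusted p under 0.05, red and blue mark members whose Rip-B7xAI4 arrays lie all above or all below the AI4 arrays, and the dotted line is the median of all tested genes; the values run from -1.24 for Pfkfb2 to 1.38 for Bpgm, whose error bar is the widest.

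The 6 members with an unadjusted p under 0.05 sit at different steps of the pathway, so the 250 bases before the first listed start of each are printed here. They come from RefSeq (GRCm38.p6), run 5′ to 3′ along the gene, and the capitals mark ACGTG on either strand, the core of sites that hypoxia-inducible factors bind. Where ACGTG on both strands overlaps as CACGTG, the run is also the E-box that Myc is known to bind.
Pfkfb2, chr1:130715822-130716071, minus strand: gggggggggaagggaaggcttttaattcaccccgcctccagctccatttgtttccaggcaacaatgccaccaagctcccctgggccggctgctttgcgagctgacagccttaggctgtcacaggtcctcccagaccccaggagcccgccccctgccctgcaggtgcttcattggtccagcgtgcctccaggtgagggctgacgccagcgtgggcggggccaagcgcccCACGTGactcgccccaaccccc
Pdk1, chr2:71872974-71873223, plus strand: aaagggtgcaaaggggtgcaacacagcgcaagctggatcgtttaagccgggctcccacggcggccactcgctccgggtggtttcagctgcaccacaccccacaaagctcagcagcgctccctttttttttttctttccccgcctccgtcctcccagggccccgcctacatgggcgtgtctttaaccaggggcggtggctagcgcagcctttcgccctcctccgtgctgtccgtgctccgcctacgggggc
Pdk3, chrX:93832151-93832400, minus strand: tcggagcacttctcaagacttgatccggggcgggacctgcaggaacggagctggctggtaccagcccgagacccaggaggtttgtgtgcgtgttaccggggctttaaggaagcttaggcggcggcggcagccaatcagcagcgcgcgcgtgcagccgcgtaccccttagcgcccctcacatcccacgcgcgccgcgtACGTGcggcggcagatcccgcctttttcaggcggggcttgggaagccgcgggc
Pfkp, chr13:6648772-6649021, minus strand: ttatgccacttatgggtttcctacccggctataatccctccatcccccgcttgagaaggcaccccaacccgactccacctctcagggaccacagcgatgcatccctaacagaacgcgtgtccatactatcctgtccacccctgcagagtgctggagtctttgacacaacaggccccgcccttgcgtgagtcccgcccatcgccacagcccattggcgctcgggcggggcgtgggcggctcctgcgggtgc
Ldha, chr7:46845554-46845803, plus strand: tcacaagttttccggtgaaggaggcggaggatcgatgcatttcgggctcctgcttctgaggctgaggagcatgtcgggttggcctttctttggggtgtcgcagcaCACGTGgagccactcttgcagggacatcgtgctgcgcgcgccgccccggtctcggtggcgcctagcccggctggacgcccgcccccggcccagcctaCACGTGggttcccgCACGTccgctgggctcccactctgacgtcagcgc
Pgam1, chr19:41911621-41911870, plus strand: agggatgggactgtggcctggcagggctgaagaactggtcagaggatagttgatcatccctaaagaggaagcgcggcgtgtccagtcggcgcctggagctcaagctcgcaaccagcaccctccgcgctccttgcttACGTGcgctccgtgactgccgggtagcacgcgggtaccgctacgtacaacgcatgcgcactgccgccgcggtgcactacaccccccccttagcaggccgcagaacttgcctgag
ACGTG stood in 4 of these 6 windows, and the Ldha window held the most, with 3 capital runs of which 2 were CACGTG. The Pfkfb2 window held 1 CACGTG, the Pdk3 and Pgam1 windows 1 ACGTG each, and the Pdk1 and Pfkp windows 0. Over all 54 windows listed for the 34 members 33.3% held ACGTG on either strand, against 16.6% of 32851 windows of the same length before all listed starts, and 11.1% held CACGTG, against 6.02%. The related core GCGTG was in 46.3% of member windows, against 28.2%. The printed windows held 1 copy for Pdk1, 3 each for Pfkp and Pdk3, 2 each for Pfkfb2 and Pgam1 and 0 for Ldha. Genes listed with several starts count several times, and a match of letters is a description and not a binding site. Genes with the letters lay on both sides, since the printed windows of Ldha and Pfkfb2 both hold CACGTG and these genes differed in opposite directions. CACGTG stood before 1 of 2 listed starts of Ldha and 1 of 3 of Pfkfb2, and which start these cells use was not measured.

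The first enzymes of the pathway trap glucose and commit it to breakdown. Of 9 tested members at these steps, from hexokinase to triosephosphate isomerase, 1 was higher and 0 were lower at an unadjusted p under 0.05. That is too few to set against the 5.56% and 3.17% of all tested genes. Pfkp, the platelet-type phosphofructokinase, read 8.97, 8.71 and 8.32 log2 in Rip-B7xAI4, against 7.93, 7.40 and 7.96 in AI4. The groups did not overlap, and the lowest Rip-B7xAI4 array stood 0.36 above the highest AI4 array. The log2 difference was 0.90 ± 0.25 (SE), or 1.87-fold, with an adjusted p of 0.463 by limma. The muscle-type isoform gene Pfkm was lower in Rip-B7xAI4, at 6.06, 5.98 and 6.04 log2 against 6.31, 6.35 and 6.41 in AI4. These groups did not overlap either, but the difference of -0.33 ± 0.15 (SE) had an unadjusted p of 0.0637 by limma. It was -0.27 after quantile normalization and -0.26 after median centring. Pfkl, the liver-type isoform gene, read 5.87 to 5.95 log2 in Rip-B7xAI4 and 5.90 to 6.16 in AI4, so its groups overlapped.

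Hexokinases phosphorylate glucose on entry. Hk2, the inducible isoform of activated cells, read 5.43, 5.26 and 5.47 log2 in Rip-B7xAI4, against 6.34, 5.73 and 5.58 in AI4. All Rip-B7xAI4 values were below the AI4 values, by 0.11 at the closest, and the difference of -0.50 ± 0.24 (SE) did not pass (unadjusted p = 0.0765 by limma). Hk2 exceeded the array median only in AI4 replicate 1, and its signal was not set against a background measure. Hk3, known from myeloid cells, read 6.04, 6.02 and 6.50 log2 in Rip-B7xAI4, against 6.00, 6.05 and 5.90 in AI4. Its highest array was Rip-B7xAI4 replicate 3, 1 of the 2 arrays with high myeloid markers, while replicate 1, the other, did not stand out, and the part of other cells in Hk3 was not tested.

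Hk1, the constitutive hexokinase, depends on which probe is read. The probe that the highest mean selects gave 10.86, 11.75 and 11.11 log2 in Rip-B7xAI4, against 10.90, 11.90 and 11.89 in AI4, with overlapping groups. That probe lists 1 accession and 0 RefSeq transcripts, and its accession also stands on 16 probes that are annotated to the ribosomal protein gene Rpl17 together with Hk1. The median of those 16 probes followed it, at 11.02, 11.56 and 11.28 log2 in Rip-B7xAI4 and 11.05, 11.80 and 11.68 in AI4, never more than 0.21 away. The other Hk1 probe lists 4 RefSeq transcripts and was nearly level, at 6.65, 6.71 and 6.64 log2 in Rip-B7xAI4 and 6.88, 6.70 and 6.56 in AI4. By that probe the log2 difference was -0.05, against -0.33 ± 0.36 (SE) by the brighter one, and the level of Hk1 is therefore uncertain here.

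**Figure D2:**
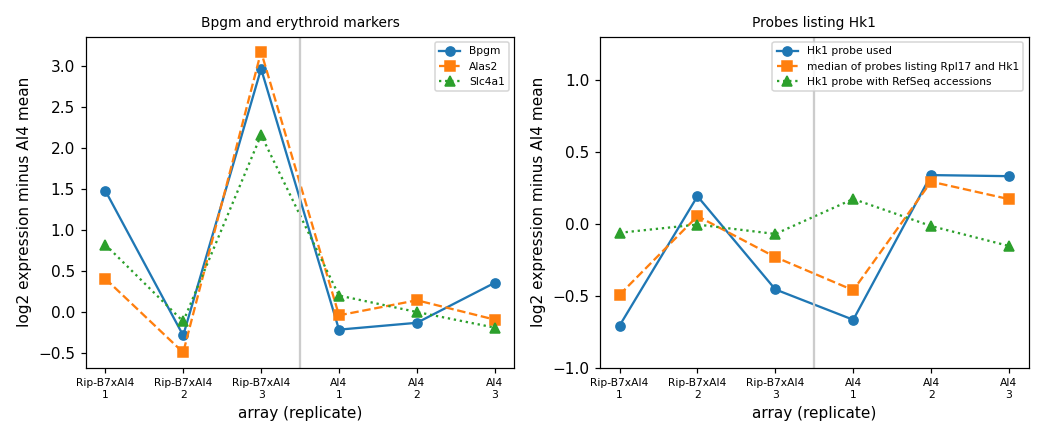
Log2 expression of each array minus the AI4 mean of the same probe, for Bpgm with the erythroid genes Alas2 and Slc4a1 (left) and for the probes that list Hk1 (right), with Rip-B7xAI4 arrays left of AI4 arrays. Bpgm and both erythroid genes peak on Rip-B7xAI4 replicate 3, as do some myeloid and B cell genes that are not shown. The Hk1 probe used tracks the 16 probes shared with Rpl17 and not the Hk1 probe with RefSeq accessions.

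Aldolase and triosephosphate isomerase complete the splitting of the sugar. Aldoa, the main aldolase outside liver and brain, read 9.32, 9.47 and 8.68 log2 in Rip-B7xAI4, against 7.56, 8.70 and 8.61 in AI4. The groups overlapped by 0.02 only, and the difference was 0.86 ± 0.37 (SE) with an unadjusted p of 0.0526 by limma. Without AI4 replicate 1, its lowest array, the difference was 0.50. Tpi1 read 7.73 to 8.71 log2 in Rip-B7xAI4 and 8.01 to 8.66 in AI4, and its 95% interval ran from -0.80 to 0.74. Aldoc, the brain-type aldolase gene, lay at 5.63 to 6.23 log2 in Rip-B7xAI4 and 5.95 to 5.98 in AI4, with a difference of -0.07.

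The largest separation in the list was in Pfkfb2, a bifunctional enzyme that makes and removes the fructose bisphosphate that activates phosphofructokinase. Pfkfb2 read 5.92, 5.71 and 5.98 log2 in Rip-B7xAI4, against 6.95, 6.85 and 7.53 in AI4. The highest Rip-B7xAI4 array was 0.87 below the lowest AI4 array, and each Rip-B7xAI4 value lay under the median of its array. Its difference of -1.24 ± 0.23 (SE) had the smallest p of all members, at rank 72 of 13950 genes, but the adjusted p by limma was 0.206. Its unadjusted p was at most 0.0151 in all 16 alternative fits, with a difference between -1.40 and -1.03. Pfkfb3, the isoform with the strongest kinase activity, read 7.11, 6.49 and 7.28 log2 in Rip-B7xAI4, against 6.05, 6.91 and 6.98 in AI4. These groups overlapped, and the difference was 0.31 ± 0.33 (SE). Pfkfb4 was too dim to test, at 4.87 to 5.48 log2 in Rip-B7xAI4 and 5.23 to 5.32 in AI4.

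Tigar, a phosphatase induced by p53 that removes the same activator, was also lower. It read 5.96, 5.95 and 5.88 log2 in Rip-B7xAI4, against 6.46, 6.19 and 6.11 in AI4. The groups did not overlap, by 0.16, and the difference of -0.32 ± 0.17 (SE) did not pass (unadjusted p = 0.0974 by limma). Of 3 tested genes at this control point, 2 had all Rip-B7xAI4 arrays below all AI4 arrays, a count too small to set against the 11.9% of all tested genes.

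The later enzymes recover ATP and end in pyruvate, and 6 of their 7 tested genes had a higher mean in Rip-B7xAI4, against 5437 of 13950 over all tested genes. Only 1 of the 7, Pgam1, had an unadjusted p under 0.05 by limma, against 8.73% of all tested genes. Over 16 alternative fits the sign changed in 5 for Pgam2, 2 for Pkm and 1 each for Eno3 and Bpgm. Pgam1, the phosphoglycerate mutase of most tissues, read 7.87, 7.63 and 7.62 log2 in Rip-B7xAI4, against 7.43, 7.11 and 7.05 in AI4. The groups did not overlap, by 0.19, and the difference was 0.51 ± 0.18 (SE), or 1.42-fold, with an adjusted p of 0.540. This was the least stable of the 6 members, since its unadjusted p exceeded 0.05 in 8 of 16 alternative fits, with differences of 0.34 to 0.62 over all 16. Those 8 include quantile normalization and the fits without Rip-B7xAI4 replicate 1, Rip-B7xAI4 replicate 2, AI4 replicate 2 or AI4 replicate 3. The other 2 Pgam1 probes gave the same direction, 1 of them with the same values on every array and the other with a difference of 0.48. Pgk1 also had a second probe with identical values, so signal from near-identical gene copies cannot be told apart for either gene. Pgk1, which makes the first ATP of the pathway, read 9.88, 9.94 and 9.36 log2 in Rip-B7xAI4, against 9.43, 8.87 and 9.45 in AI4, with a difference of 0.47 ± 0.25 (SE). Its highest values were in Rip-B7xAI4 replicates 1 and 2, and the third overlapped AI4. A further Pgk1 probe, with values of its own, gave a difference of 0.40, also with overlap.

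Pkm, the pyruvate kinase gene of proliferating cells, did not separate the groups. It read 9.45, 8.78 and 8.56 log2 in Rip-B7xAI4, against 8.89, 8.61 and 8.80 in AI4, and the 95% interval of the difference ran from -0.46 to 0.79. The second Pkm probe gave a difference of 0.17, close to the 0.16 of the first. Eno3, the muscle-type enolase gene, owed its mean to 1 array, with 7.36, 8.66 and 6.84 log2 in Rip-B7xAI4, against 7.21, 6.80 and 7.32 in AI4. Without Rip-B7xAI4 replicate 2 its difference was -0.02, against 0.50 with it. Eno2, Pgam2 and Pklr, known from neurons, muscle, and liver and red cells, ranged from 4.97 to 6.65 log2 in Rip-B7xAI4 and from 5.32 to 6.80 in AI4, and Eno2 was not tested.

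Bpgm, which makes the bisphosphoglycerate that lowers oxygen affinity of haemoglobin in red cells, had the largest difference and the widest error. It read 7.64, 5.88 and 9.13 log2 in Rip-B7xAI4, against 5.95, 6.03 and 6.52 in AI4. Replicates 1 and 3 were above every AI4 array and replicate 2 below them all, so the difference of 1.38 ± 0.75 (SE) did not pass (unadjusted p = 0.110 by limma). The erythroid genes Alas2 (heme synthesis) and Slc4a1 (the anion exchanger of the red cell membrane) had the same order over the Rip-B7xAI4 arrays. That order was not particular to erythroid genes. The myeloid genes Csf1r, Fcer1g and Tyrobp and the B cell genes Ms4a1 and Cd79b had it too, whereas Lyz2, Cybb and Blnk were highest on replicate 1. Alas2 read 7.15, 6.25 and 9.92 log2 in Rip-B7xAI4, against 6.71, 6.89 and 6.65 in AI4. Slc4a1 read 7.36, 6.42 and 8.69 log2 in Rip-B7xAI4, against 6.73, 6.53 and 6.34 in AI4. The whole erythroid list had 4 of 8 genes measured, averaging 5.79 to 7.38 in Rip-B7xAI4 and 5.93 to 6.16 in AI4, and 2 of the 4 did not follow Bpgm. Epb42, which was too dim to test, was highest on replicate 3 but lowest on replicate 1, and Klf1 lay at 5.43 to 5.65 in Rip-B7xAI4 and 5.55 to 6.00 in AI4. Without Rip-B7xAI4 replicates 1 and 3 the Bpgm difference was -0.29, without replicate 2 it was 2.22, and without replicate 3 it was 0.59. The part of red cell precursors, myeloid cells or B cells in Bpgm was not tested.

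Lactate dehydrogenase subunits went opposite ways. Ldha, the subunit that favours the making of lactate, read 8.54, 9.17 and 8.24 log2 in Rip-B7xAI4, against 7.30, 8.03 and 7.94 in AI4. The groups did not overlap, by 0.21, and the difference was 0.89 ± 0.31 (SE), or 1.86-fold, with an adjusted p of 0.530 by limma. Its highest value was in replicate 2, the Rip-B7xAI4 array with the lowest mean of myeloid markers, and against AI4 that array alone differed by 1.41. Without Rip-B7xAI4 replicate 2 or without AI4 replicate 1, and after quantile normalization, the unadjusted p exceeded 0.05, with differences of 0.63 to 1.41 over 16 alternative fits. Ldhb, the heart-type subunit gene, read 5.25, 5.56 and 5.01 log2 in Rip-B7xAI4, against 5.76, 5.56 and 5.84 in AI4. The 2 groups touched at 5.56, and the difference of -0.44 ± 0.20 (SE) did not pass (unadjusted p = 0.0657 by limma). Every Ldhb value lay below the median of its array. The second Ldhb probe read 4.64 to 4.97 log2 in Rip-B7xAI4 and 5.16 to 5.57 in AI4, without overlap.

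**Figure D3:**
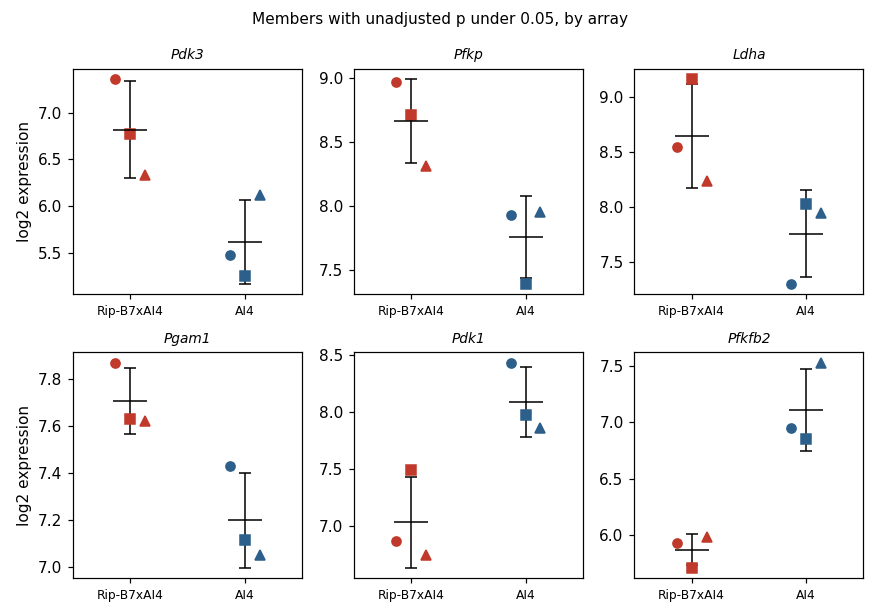
Log2 expression on each array of the 6 members with an unadjusted p under 0.05, Rip-B7xAI4 left and AI4 right; circles, squares and triangles are replicates 1, 2 and 3, and bars give the mean ± SD (n = 3). The groups do not overlap in any panel, with Pdk3, Pfkp, Ldha and Pgam1 higher and Pdk1 and Pfkfb2 lower in Rip-B7xAI4; the axes differ and do not start at 0.

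Kinases that switch off pyruvate dehydrogenase also divided. Pdk1, the isoform best known as a target of Hif1a, read 6.86, 7.49 and 6.74 log2 in Rip-B7xAI4, against 8.43, 7.98 and 7.86 in AI4. The highest Rip-B7xAI4 array was 0.37 below the lowest AI4 array, and the difference of -1.06 ± 0.27 (SE), or 2.08-fold, had an adjusted p of 0.410 by limma. Rip-B7xAI4 replicate 2 was nearest to AI4, and against AI4 that array alone differed by -0.60 (unadjusted p = 0.139). Pdk3 went the other way on the same arrays, with 7.36, 6.77 and 6.33 log2 in Rip-B7xAI4, against 5.48, 5.25 and 6.12 in AI4. Its groups did not overlap, by 0.21, and the difference of 1.20 ± 0.34 (SE), or 2.30-fold, had an adjusted p of 0.470. Pdk2 read 5.68, 5.74 and 6.03 log2 in Rip-B7xAI4, against 5.68, 5.81 and 5.59 in AI4, with overlap. Pdk4, known from fasted muscle and liver, was too dim to test and equal in mean, at 5.12 to 5.18 log2 in Rip-B7xAI4 and 4.98 to 5.28 in AI4.

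**Figure D4:**
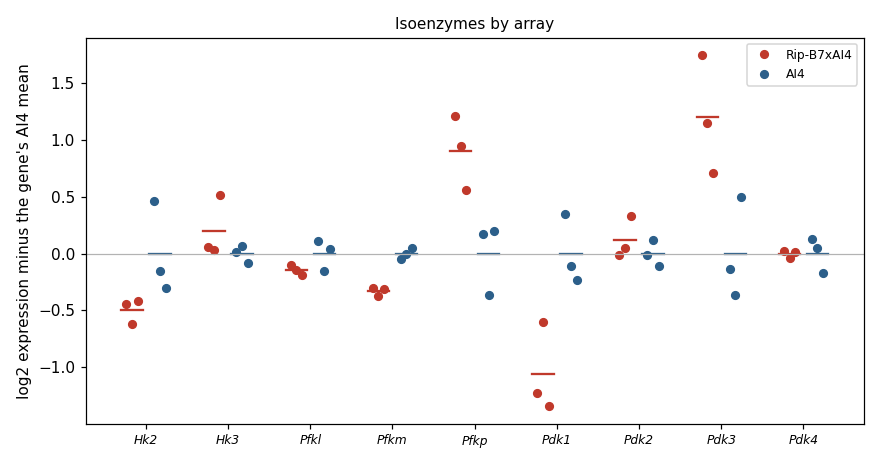
Log2 expression of each array minus the AI4 mean of the same gene for hexokinase, phosphofructokinase and pyruvate dehydrogenase kinase genes; points are arrays and lines group means (n = 3), Rip-B7xAI4 left of AI4 for each gene. Mean differences within each family go both ways, with 0.90 for Pfkp and -0.33 for Pfkm, and 1.20 for Pdk3 and -1.06 for Pdk1. Of the genes shown, only Pfkp, Pdk1 and Pdk3 had an unadjusted p under 0.05 by limma. Hk1 is left out and Pdk4 was not tested.

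Genes of the complex these kinases act on overlapped between the groups. Pdha1, its catalytic alpha subunit gene, read 7.96, 7.73 and 7.15 log2 in Rip-B7xAI4, against 7.50, 7.46 and 7.92 in AI4, and the interval of the difference ran from -0.64 to 0.61. Pdhb, the beta subunit gene, read 7.80 to 8.40 log2 in Rip-B7xAI4 and 7.76 to 7.99 in AI4, with an interval of -0.38 to 0.63. Hif1a itself spread widely inside both groups, with 8.37, 7.90 and 7.06 log2 in Rip-B7xAI4, against 8.36, 7.02 and 7.77 in AI4. Its difference of 0.06 ± 0.44 (SE) had a 95% interval of -0.996 to 1.12, so a change of up to about that size was not resolved. Arrays measure its RNA, whereas Hif1a is known to be controlled largely by breakdown of the protein.

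The 6 members were then read beside the cell markers. Against AI4, replicate 2 alone, the Rip-B7xAI4 array with the lowest mean of myeloid and B cell markers, gave differences of 1.15 for Pdk3, 0.95 for Pfkp, 1.41 for Ldha, 0.43 for Pgam1, -0.60 for Pdk1 and -1.40 for Pfkfb2. The signs were fixed by the lack of overlap, so only the sizes could vary. These rest on 1 array and cannot show what share other cells had. Pdk1 and Pgam1 no longer had an unadjusted p under 0.05 by limma, where the spread of the lone array was taken to equal that of AI4. The part of myeloid and B cells in these 6 members was not tested. Of 9 cell division genes 7 were higher and 0 lower in Rip-B7xAI4 at an unadjusted p under 0.05, against 5.56% and 3.17% of all tested genes, and Mki67, the Ki-67 antigen, differed by 2.55 ± 0.53 (SE). The part of cell division in the glycolytic values was not tested.

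Pathways next to glycolysis were read from lists of genes. Of 9 tested genes of the pentose phosphate pathway, which branches off after hexokinase, 8 had a higher mean in Rip-B7xAI4. The median difference was 0.46, against -0.097 over all genes, and 8 were higher under quantile normalization and median centring too. The arrays overlapped, however, with a list mean of 7.63, 7.25 and 6.73 log2 in Rip-B7xAI4, against 6.45, 6.87 and 7.06 in AI4. At an unadjusted p under 0.05, 0 were higher and 1 was lower, too few to set against the 5.56% and 3.17% of all tested genes. The lower gene was H6pd, which starts the pathway inside the endoplasmic reticulum, with -0.45 ± 0.16 (SE). Rpia and Rpe, enzymes that shape ribose, differed by 0.52 ± 0.24 and 0.50 ± 0.24 and did not pass. Sugar and lactate carriers split, with 4 of 8 tested genes higher and 4 lower, a median of 0.008 and 0 with an unadjusted p under 0.05; 3 were higher after quantile normalization and 6 after median centring. Slc2a1, the main glucose carrier of activated T cells, read 8.63, 7.96 and 8.19 log2 in Rip-B7xAI4, against 8.05, 8.31 and 7.71 in AI4, with an interval of -0.36 to 0.83. Of its relatives, Slc2a8 differed by -0.44 ± 0.21 (SE) with no overlap and Slc2a3 by 0.50 ± 0.36.

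Mitochondrial steps beyond pyruvate were read from 2 lists. Of 16 tested citric acid cycle genes, 3 were higher and 0 lower at an unadjusted p under 0.05, against 5.56% and 3.17% of all tested genes, and the median difference was 0.42. After quantile normalization the median was 0.21 and 2 genes were higher. The list mean read 8.62, 8.29 and 8.11 log2 in Rip-B7xAI4, against 7.69, 7.95 and 8.06 in AI4. It was lowest in AI4 replicate 1 and nearly level between the arrays numbered 3. Sucla2, a subunit of succinyl-CoA ligase, read 8.53, 8.44 and 7.91 log2 in Rip-B7xAI4, against 6.81, 7.05 and 7.73 in AI4, a difference of 1.10 ± 0.30 (SE). Mdh1 and Mdh2, the cytosolic and mitochondrial malate dehydrogenases, differed by 0.76 ± 0.25 and 0.64 ± 0.24. No citric acid cycle gene had an adjusted p under 0.462 by limma. Of 7 tested genes of pyruvate entry, 3 had a higher and 4 a lower mean, with a median difference of -0.04, and 0 had an unadjusted p under 0.05. Dld, a subunit of several dehydrogenase complexes, differed by 0.88 ± 0.41 without overlap of the groups.

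Regulators of glycolysis gave few separations. Over all tested genes 5.56% were higher and 3.17% lower at an unadjusted p under 0.05. In the short lists below, 1 such gene is too few to set against these shares. Of 11 oxygen-sensing and MYC genes, 0 were higher and 1 was lower at that limit. That gene was Egln3, a prolyl hydroxylase that marks Hif1a protein for breakdown and is itself a known hypoxia target, with 5.38, 5.58 and 5.57 log2 in Rip-B7xAI4, against 5.74, 6.15 and 6.74 in AI4. Its difference of -0.70 ± 0.27 (SE) had no unadjusted p under 0.05 after quantile normalization or median centring. Myc read 8.89, 9.24 and 7.59 log2 in Rip-B7xAI4, against 9.24, 8.86 and 8.29 in AI4, with an interval of -1.34 to 0.88. Of 9 tested hypoxia targets outside glycolysis, 1 was higher and 0 lower, and that was Ero1a, an oxidase of the endoplasmic reticulum, with 1.38 ± 0.53 (SE). Their median difference was 0.08. Of 10 genes of the mTOR and AMPK pathways, 0 were higher and 1 lower, Eif4ebp1, a brake on translation, with -0.50 ± 0.19 (SE). Glycogen genes (8 tested), gluconeogenic genes (4 tested) and further glycolytic isoenzymes (4 tested) had 0 genes with an unadjusted p under 0.05 by limma and 0 with an adjusted p under 0.05.

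**Figure D5:**
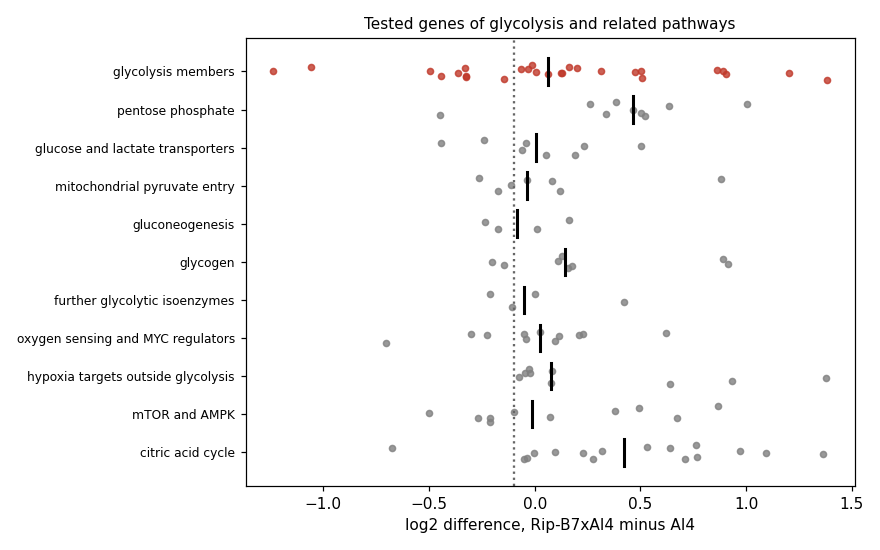
Log2 difference (Rip-B7xAI4 minus AI4) of each tested gene of glycolysis (red, 27 genes) and of related pathways (grey); black bars are list medians and the dotted line is the median of all tested genes. The glycolysis median is 0.062 with points on both sides, against 0.46 for the pentose phosphate and 0.42 for the citric acid cycle genes.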

How the data were processed

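RNA expression was measured on 6 Affymetrix arrays of 1 colour. Expression Console by Affymetrix is named in the submitters' processing notes; neither its version nor its algorithm is stated there. The deposited values, already normalized, were read as log2 from their range (2.29 to 13.61), since no source states the scale. Values were used as deposited.

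Of 28325 probes, 21760 had 1 gene symbol in the platform annotation, 1621 several and 4944 none, and only the first kind was used. The probe with the highest mean was kept per gene, and the 30% of genes with the lowest mean, under 5.47 log2, were not tested. Groups came from sample titles. All tested genes were fitted with limma 3.58.1 in R 4.3.3 without a block (two-sided, Benjamini-Hochberg over 13950 genes), and the fit was tested on simulated data. Differences are Rip-B7xAI4 minus AI4, and list counts describe and are not tested. Members and gene lists were chosen with earlier results of these data known. Alternatives covered scaling, filter, probe choice, variance model, array weights, replicate block and arrays left out. Every member is named. Values by array go to members with an unadjusted p under 0.05, without overlap or in the Hk, Pfkfb and Pdk families, and to further members chosen after their values were seen. Up to 3 genes of a related list are named by smallest p, and Slc2a1, Myc and the single marker genes were chosen after their values were seen. Replicates are labelled biological. Promoter sequences are RefSeq's, with a match by symbol for all 34 members.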

Additional observations from a re-analysis of the deposited data

How the results depend on the processing

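No glycolytic member passed an adjusted p of 0.05 by limma in any of 16 alternative fits, while the count with an unadjusted p under 0.05 varied. Leaving out 1 array at a time gave 0 to 22 genes past an adjusted p of 0.05, the 22 without Rip-B7xAI4 replicate 2, with 614 to 2399 genes with an unadjusted p under 0.05 over all alternatives. It gave 3 to 6 members higher and 2 to 3 lower at an unadjusted p under 0.05. The shares of all genes were 3.49% to 6.85% higher and 1.97% to 4.42% lower. For 4 to 7 members the Rip-B7xAI4 arrays lay all above, the 7 without Rip-B7xAI4 replicate 3, against 8.02% to 12.3% of all genes. For 5 to 7 members they lay all below, against 15.9% to 24.7% of all genes. Fewer arrays make separation easier. The median member difference then ran from -0.10 to 0.15. Without Rip-B7xAI4 replicates 1 and 3 together, 8 members lay all above, as did 19.7% of all genes. Array weights gave 38 genes past an adjusted p of 0.05. With them 7 members were higher and 5 lower at an unadjusted p under 0.05, against 8.97% and 8.23% of all genes. Quantile normalization left 2 members higher and 2 lower, against 4.46% and 3.78% of all genes, since Ldha and Pgam1 no longer passed. The median member difference was then -0.042. Median centring gave 6.06% of all genes higher and 2.02% lower at an unadjusted p under 0.05. The trend and robust setting gave 4 members lower, against 4% of all genes. The 50% filter, which tests fewer genes, left 3 members all below, against 10.2% of all genes. The cause of the other shifts was not tested. Same-numbered arrays showed no clear common deviation, with correlations of -0.08, 0.06 and -0.22. Deviations within a group of 3 arrays constrain one another, so these values cannot exclude pairing. With the replicate block 0 genes passed an adjusted p of 0.05 and 993 an unadjusted one. There 4 members were higher and 2 lower, against 5.53% and 1.59% of all genes. Pfkfb2, Pdk3 and Pfkp had an unadjusted p under 0.05 in 16 of 16 alternatives, Pdk1 in 15, Ldha in 13 and Pgam1 in 8. Reading Hk1 by its other probe was chosen after seeing the data, and it left the values of these genes as they were. Averaging the probes of a gene changed the values of Pgam1 only among them. Such fits are no separate check of a gene whose values stay the same. The pseudocount alternative did not apply to log2 values. Dim members lack a measure of signal over background.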
